A study of Mus musculus with 2 samples.

Results

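The Cryab Krt14 cells were 732 single tumour-like cells, 327 control and 405 knockdown cells by library, out of 24830 cells in both. Where 2 values are given for 1 set of cells below, the first is from the control and the second from the knockdown library. A gate first took cells with at least 5000 unique molecular identifiers (UMIs, 1 for each RNA molecule captured), at most 20% mitochondrial UMIs, little RNA of the macrophage genes Lyz2 and C1q (each under 5 UMIs per 10000), no UMI of the leukocyte genes Ptprc and Cd3e, and at least 1 UMI of Hmga2, Tnfrsf12a or Igf2bp2. It left 9389 cells. Cells with 10 or more UMIs per 10000 from Top2a, Cenpf, Ube2c, Ccnb1 and Cdc20 were taken as cycling and dropped, which left 7324. The summed UMIs of Cryab, Krt14, Crabp2 and Lrrn4cl per 10000 UMIs of the cell were then the score, and the top 10% of the 7324 cells over both libraries were kept. The other 6592 non-cycling cells of the gate, called the other gated cells here, were the comparison.

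The study measured single-cell RNA with the 10x Genomics platform in 2 mouse tumours grown from LLC cells, a Lewis lung carcinoma line, labelled as lung cancer xenografts. One tumour was labelled control and 1 carried a short hairpin RNA against GFPT2, an enzyme of the first step of the hexosamine pathway. The stated question was the tumour immune microenvironment and the communication between cells. The mouse strain, age and sex, the number of animals behind each library, the hairpin and whether the line was 1 clone are not given in the sources used here. With 1 library per group there is no replicate check and no test of any difference below. Levels are depth-scaled counts (CPM), which divide the UMIs of a gene by the UMI total of the set of cells in 1 library, with exact Poisson 95% intervals. Shares of cells have exact Clopper-Pearson 95% intervals. Both kinds of interval cover counting error only, and the range given for a ratio is what the pair of intervals allows.

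Cells short of oxygen stabilise the hypoxia-inducible factors (HIF), which bind DNA at a short core motif and raise genes for glucose uptake, glycolysis, angiogenesis, mitophagy and the control of HIF itself. Tumours outgrow their vessels, and such genes are commonly high in the cells farthest from blood. Cryab encodes alpha-B crystallin, a small heat shock protein that holds unfolding proteins in solution. Krt14 is the keratin partner of Krt5 in basal epithelium, Crabp2 carries retinoic acid to the nucleus, and Lrrn4cl encodes a membrane protein named for its likeness to the end of LRRN4.

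The hypoxia genes that were higher in these cells are shown first by their promoters, because the HIF core motif is known. RefSeq promoter windows (build GRCm38.p6) were searched for ACGTG, or CACGT on the other strand, in the 250 bases before the gene's start. Of 32851 windows in the table, 16.6% held it. Of the 8 hypoxia genes that were higher, 7 had a window, and 6 of those 7 (85.7%) held the motif, Higd1a being the other. Of the hypoxia genes that passed the level filter and were not called, 12 had a window and 9 (75%) held it. Ndrg1 had no window in the table. A match is a description of these letters only. The match nearest the start is printed with up to 24 bases on each side, 5′ to 3′ on the gene's strand, with the motif in capitals. The Bnip3 match reads CACGTG, which holds the motif on both strands in overlapping letters. The printed stretches lie at chr14:45318607-45318659 (Ero1a, minus strand), chr7:138909585-138909637 (Bnip3, minus), chr8:124949294-124949346 (Egln1, minus), chr8:45999851-45999880 (Ankrd37, minus), chr11:54100822-54100874 (P4ha2, plus) and chr4:119108685-119108737 (Slc2a1, plus).
Ero1a: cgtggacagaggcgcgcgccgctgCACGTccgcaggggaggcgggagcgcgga
Bnip3: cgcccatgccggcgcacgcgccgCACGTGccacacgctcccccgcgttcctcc
Egln1: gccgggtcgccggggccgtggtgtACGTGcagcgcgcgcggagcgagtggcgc
Ankrd37: ggctgcacatgtcagtgtttgggtACGTGa
P4ha2: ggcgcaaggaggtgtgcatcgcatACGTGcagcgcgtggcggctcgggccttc
Slc2a1: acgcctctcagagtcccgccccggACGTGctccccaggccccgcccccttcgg

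The Cryab Krt14 cells held 6718032 and 6846684 UMIs. Their median depth was 19362 and 15070 UMIs per cell, against 18560 and 14735 in the other gated cells. Mitochondrial UMIs were 1.68% and 1.59% of their totals. Scrublet, which scores cells for being 2 cells in 1 droplet, marked 0.612% and 1.73% of the members and 2.17% and 5.76% of the other gated cells. The libraries share 37 cell barcodes, and no member of 1 library was a member of the other. Gfpt2, the targeted gene, gave 4 UMIs in the control and 1 in the knockdown members, a log2 ratio of -2.03 with a counting range from -8.69 to 2.33. In the other gated cells it was at 1.82 and 0.709 CPM. At least 1 Gfpt2 UMI was found in 0.917% of control and 0.247% of knockdown members. That share was 0.980% and 0.350% in cells with macrophage Lyz2 and leukocyte Ptprc RNA (median depths 8272 and 7752.5 UMIs), so the level in members was not above background and the knockdown cannot be checked within them.

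Members made up 8.74% of the non-cycling gated cells of the control library (interval 7.85% to 9.69%) and 11.3% of those of the knockdown library (10.3% to 12.4%). The ratio was 1.29, with a range from 1.06 to 1.58. The rule fixes the share at 10% over both libraries, so only the split between them was free. With Cryab left out of the score the ratio was 1.04. The score ran without a gap: 2990 cells (40.8%) were at 0, the median cell was at 0.606, the last member was at 6.025 and the first cell outside at 6.019. The 10th cell inside the cut was at 6.08 and the 10th outside at 5.96. Within 10% of the cut lay 60 members above and 103 other cells below. The class is a range of this score, and whether its cells form a cluster was not tested.

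**Figure D1:**
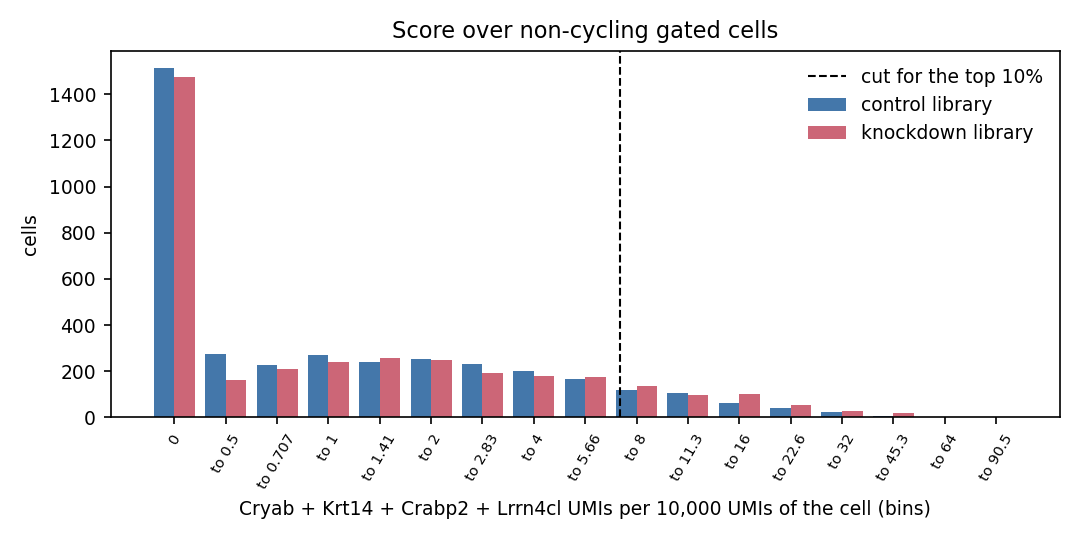
Number of non-cycling gated cells (y axis) by the summed Cryab, Krt14, Crabp2 and Lrrn4cl UMIs per 10000 UMIs of the cell (x axis, bins labelled by their upper edge), with 1 bar per library. The largest bin in both libraries is 0, and the counts fall through the dashed line at the cut for the top 10% with no gap.

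The 4 score genes chose the cells, so their levels are a description. Cryab (ENSMUSG00000032060) was at 480 CPM (interval 464 to 497) and 671 CPM (652 to 691) in members, against 30.8 and 38.0 CPM in the other gated cells. Lrrn4cl (ENSMUSG00000071656) was at 451 and 321 CPM, against 54.9 and 43.9 CPM. These 2 genes were the common ones, with a UMI in 83.2% (Cryab) and 92.7% (Lrrn4cl) of control members and in 82.2% and 82.7% of knockdown members.

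Krt14 and Crabp2 were found in fewer members than Cryab. Krt14 (ENSMUSG00000045545) had a UMI in 33.9% of control members (interval 28.8% to 39.4%) and 35.1% of knockdown members (30.4% to 39.9%). In the Lyz2 and Ptprc cells that share was 2.00% and 4.32%. Krt14 was at 116 and 171 CPM in members and at 5.65 and 9.68 CPM in the other gated cells, and 1 control cell held 19.7% of its control UMIs. Crabp2 (ENSMUSG00000004885) had a UMI in 49.5% and 43.7% of members (intervals 44.0% to 55.1% and 38.8% to 48.7%), against 4.56% and 6.25% of the Lyz2 and Ptprc cells, and was at 218 and 180 CPM, against 12.2 and 14.1 CPM. After each cell was thinned to 5000 UMIs the Krt14 shares in members were 22.6% and 26.4%. All 4 genes were found together in 51 control and 44 knockdown members, and 34 and 57 members had 1 of them alone.

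Other keratin and epithelial junction genes were low or at 0. Krt5, the partner of Krt14, had 0 UMIs in the members of both libraries, which by the exact Poisson bound allows up to 0.549 and 0.539 CPM. Of 21 keratin and epithelial junction genes, Krt5, Krt6a, Krt8, Krt15, Krt18, Krt19, Epcam, Dsp, Cldn4 and Perp were at 0 in members of both libraries. Krt16, a keratin of stressed and wounded epidermis, was the 1 gene of that list to pass the level filter. It was at 68.9 and 16.7 CPM in members, against 37.3 and 5.5 CPM in the other gated cells, and 1 cell held 27.9% and 36.0% of its member UMIs. The whole list summed to 100.03 and 37.8 CPM in members, against 71.2 and 13.4 CPM in the other gated cells. Most of the control sum in members was Krt16, and 10 members held 94.2% of its control UMIs. In each library 11 genes at 0 in members have no ratio and were left out. The 10 others had median log2 ratios of 1.06 and 1.45, with 9 and 10 above 0. For 5 and 4 of them the whole range was above 0. These medians leave out the genes lowest in members and rest mostly on genes below the level filter. Krt7, a keratin of simple epithelia, was at 4.02 against 0.962 CPM and 5.55 against 0.632 CPM. The summed level of 12 keratinocyte markers was 28.3 and 32.0 CPM in members, against 23.8 and 27.8 CPM in the other gated cells.

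Ndrg1 and Ero1a, the 2 markers of the name that the rule did not use, were higher in the members of both libraries. Higher and lower here mean at least 1.5-fold apart in both libraries, among genes with a mean of at least 10 CPM over the 2 cell sets. By this rule 97 of 7785 genes (1.25%) were higher in the members and 201 (2.58%) were lower. A gene under 10 CPM in 1 of the 2 cell sets can pass the filter only through the other set, which fixes its direction. With TMM scaling, which sets the totals by the bulk of genes, the split was 131 higher and 143 lower. The median log2 ratio of all genes was -0.10 and -0.08.

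Ero1a (ENSMUSG00000021831), an oxidase that helps form disulfide bonds in the endoplasmic reticulum, was at 662 CPM in control members (interval 643 to 682) against 286 CPM in the other gated cells. In the knockdown library it was at 476 CPM (460 to 492) against 249 CPM. The log2 ratios were 1.21 (1.15 to 1.28) and 0.94 (0.86 to 1.01). Both member values lie above both values of the other gated cells. Ndrg1 (ENSMUSG00000005125), a stress-induced gene of growth arrest and differentiation, was at 304 and 244 CPM in members, against 138 and 124 CPM. Its log2 ratios were 1.14 (1.05 to 1.24) and 0.97 (0.87 to 1.08).

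Of the 26 genes of the wider hypoxia list above the level filter, 8 were higher (against 1.25% of all genes) and 1 lower. The median log2 ratio of the list was 0.48 and 0.46, over 31 and 32 of its 35 genes, and 27 and 29 were above 0. The genes left out were those at 0 in members and so without a ratio, Car12, Nrn1 and Tcaf2 in both libraries and Lox in control. Without Ndrg1 and Ero1a, which helped name the cells, 6 of 24 genes were higher and the medians were 0.46 and 0.45. The list was chosen with earlier results of these data known. Its summed level was 6329 against 3719 CPM for control and 5389 against 3656 CPM for knockdown cells.

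Each gene is given next as members against other gated cells, control first. Bnip3, a mitochondrial protein that starts mitophagy, was at 478 against 234 CPM and 384 against 215 CPM. Higd1a, a mitochondrial protein of survival under low oxygen, was at 987 against 498 CPM and 765 against 456 CPM. Slc2a1, the glucose transporter GLUT1, was at 119 against 64.0 CPM and 108 against 62.5 CPM. These 3 genes cover both the mitochondrial and the glucose side of the response. Egln1, a prolyl hydroxylase that marks HIF for destruction, was at 259 against 146 CPM and 199 against 131 CPM. P4ha2, which hydroxylates collagen, was at 99.6 against 53.9 CPM and 98.7 against 61.8 CPM. Ankrd37, an ankyrin repeat protein, was at 152 against 73.0 CPM and 114 against 68.2 CPM. Vegfa, the main angiogenic growth factor, was not called, at 236 against 144 CPM and 225 against 157 CPM. The lower gene was Rora, a nuclear receptor, at 38.6 against 59.9 CPM and 29.2 against 54.2 CPM. Car9, a carbonic anhydrase often used to mark hypoxic tumour, was below the level filter at 8.78 and 4.67 CPM in members, with a UMI in 7.03% and 5.43% of them. That share was 2.81% and 3.02% in the other gated cells and 5.75% and 6.19% in the Lyz2 and Ptprc cells, whose median depth was lower. With each cell thinned to the same number of UMIs, Car9 was found in 3.36% and 1.98% of members, 0.908% and 1.20% of other gated cells and 3.58% and 3.39% of Lyz2 and Ptprc cells, so the members' share was not above that of the Lyz2 and Ptprc cells.

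**Figure D2:**
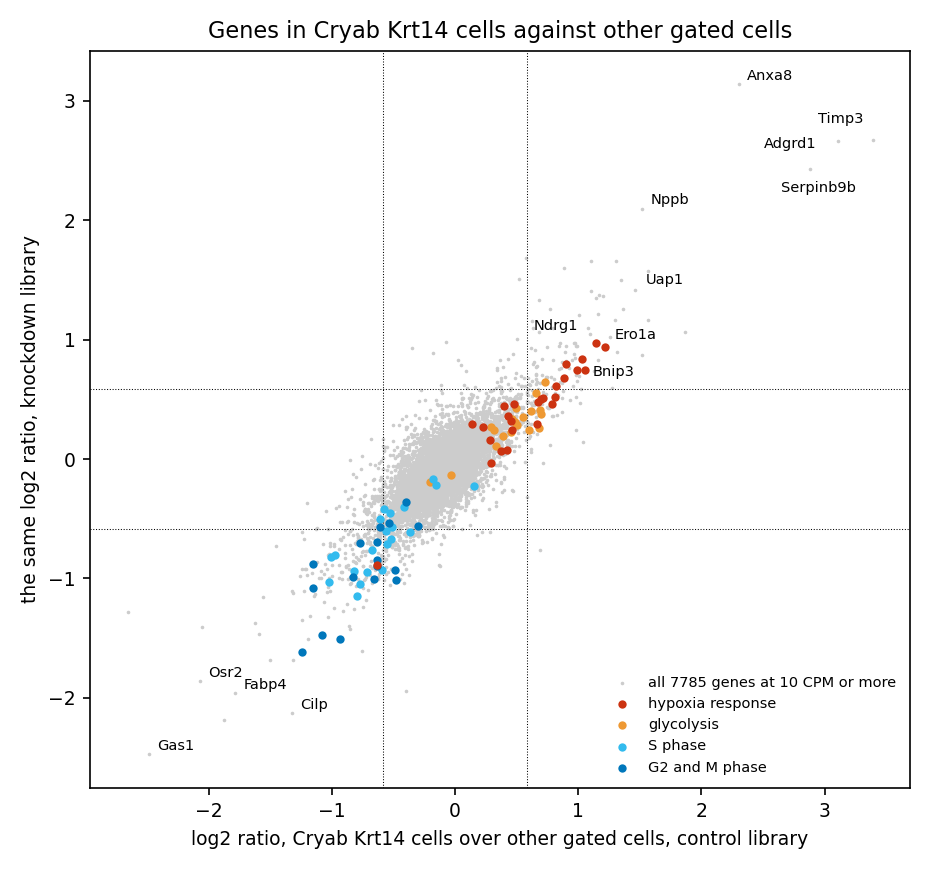
Each point is a gene, with its log2 ratio of Cryab Krt14 cells over other gated cells in the control library (x axis) and in the knockdown library (y axis), and dotted lines at 1.5-fold. Of the coloured lists, the hypoxia genes lie mostly to the upper right, with Rora to the lower left and Angptl4 at -0.03 in the knockdown library, the glycolysis genes lie mostly above 0 on both axes, and the S phase and G2 and M phase genes lie mostly to the lower left.

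Of the glycolysis genes 1 was called, against 1.25% of all genes higher and 2.58% lower. Among 18 genes above the level filter, Hk1, the hexokinase of most tissues, was higher, at 85.6 against 51.7 CPM and 75.2 against 48.1 CPM. The median log2 ratio of the list was 0.48 and 0.27, with 17 and 16 of 20 genes above 0. Aldoc and Eno2, at 0 in members, have no ratio and were left out. Pgk1 and Ldha, well-known HIF targets among them, were at 1828 against 1289 CPM and 1753 against 1272 CPM in control cells, short of 1.5-fold. Nuclear genes of the respiratory chain had median log2 ratios of -0.13 and -0.11, near the median of all genes, and none was called.

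Single cells overlapped widely. With every cell thinned to 5000 UMIs, the hypoxia list summed to between 8 and 274 UMIs per 10000 in control members, with a median of 50, against a median of 26 in the other gated cells (0 to 294). In the knockdown library members ranged from 4 to 264 with a median of 48, against a median of 28 (2 to 400). Most members, 78.9% and 74.6%, lay above the median of the other gated cells of their library. Of them 28.4% and 27.2% lay above their 90th percentile.

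The summed hypoxia level was also higher in the highest-scored cells outside the cut than in cells at score 0. The control cells at score 0 had a summed hypoxia level of 3370 CPM, the cells scored highest outside the cut had 4822 CPM, and members with the higher scores had 7228 CPM. For knockdown cells the same bins had 3274, 4519 and 5916 CPM. In control cells Ero1a was at 253 CPM at score 0, 436 CPM just outside the cut, 538 CPM in the members with the lower scores and 812 CPM in those with the higher scores. In knockdown cells it was at 195, 413, 332 and 598 CPM in the same order. The knockdown members with the lower scores (313 to 353 CPM by the Poisson interval) were thus below the cells just outside the cut (398 to 427 CPM).

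**Figure D3:**
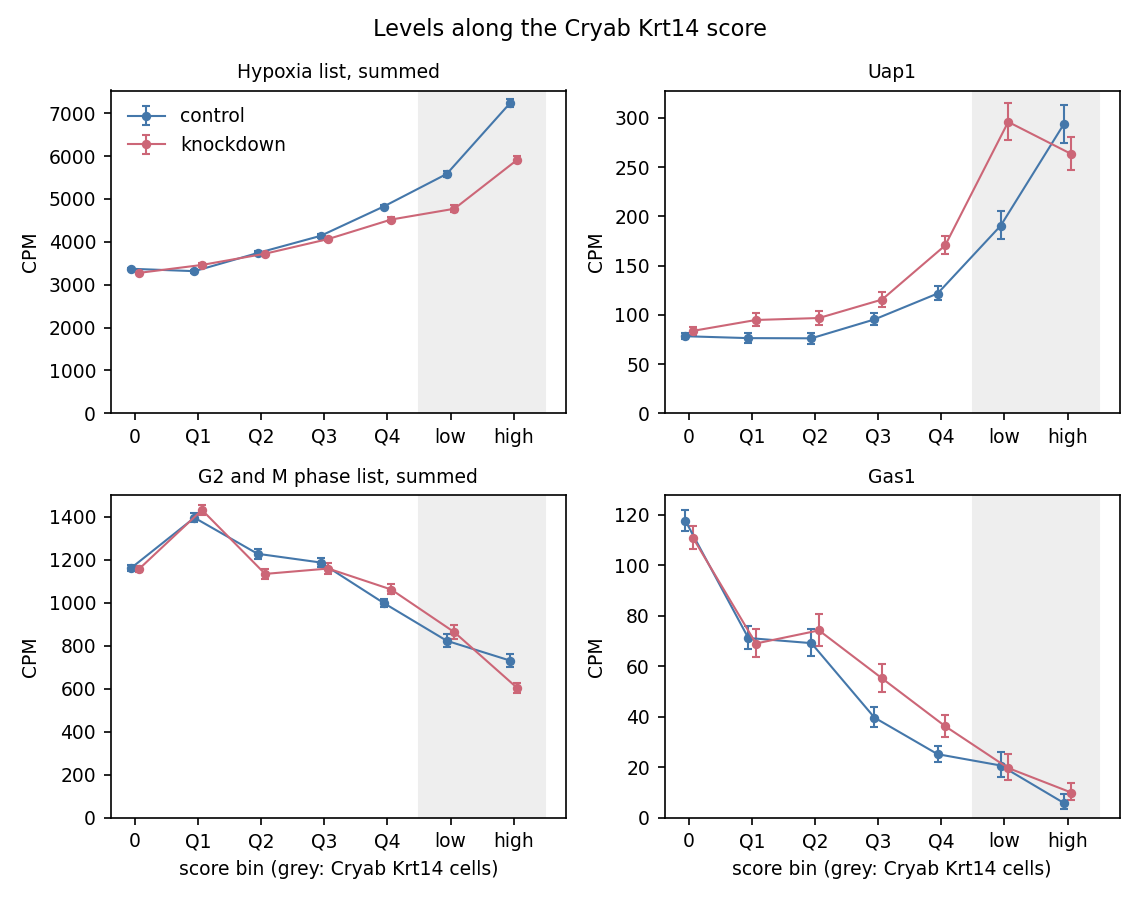
CPM with 95% Poisson intervals (y axis) in 7 bins of the score (x axis: score 0, Q1 to Q4 of rising score outside the cut, split at quartiles, and the lower and upper members, shaded grey), for each library. The summed hypoxia list and Uap1 climb toward the members, while the G2 and M phase list and Gas1 decline from Q1 or from 0.

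Cell cycle genes were low in the members although cycling cells had been dropped on both sides. Of 21 S phase genes above the level filter 9 were lower, against 2.58% of all genes, with median log2 ratios of -0.60 and -0.71. Of 17 G2 and M phase genes not used by the rule 11 were lower, with medians of -0.66 and -0.93. Rrm2, the ribonucleotide reductase subunit made in S phase, was at 58.5 against 101 CPM and 46.4 against 103 CPM. Birc5, the mitotic protein survivin, was at 95.3 against 169 CPM and 85.4 against 170 CPM. Cdkn1a, which encodes the cell cycle inhibitor p21, was higher, at 166 against 66.5 CPM and 130 against 70.3 CPM. It was 1 of 2 p53 target genes of 10 that were higher, against 1.25% of all genes. The other was Phlda3, at 332 against 185 CPM and 258 against 153 CPM.

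Among genes past the level filter, those farthest above the other gated cells came from outside the hypoxia list. Some passed the filter only through the members, being under 10 CPM in the other gated cells, and so could only come out higher. Timp3, Adgrd1 and Serpinb9b were such genes in both libraries, and Anxa8 and Nppb in the knockdown library. Their rank is a description. Timp3, an inhibitor of matrix proteases, was at 66.5 against 6.35 CPM in control cells, a log2 ratio of 3.39. In knockdown cells it was at 19.0 against 2.97 CPM. With each cell thinned to the same number of UMIs, knockdown Timp3 was found in 1.07% of other gated cells (interval 0.742% to 1.49%). In the knockdown Lyz2 and Ptprc cells that share was 0.643% (0.321% to 1.15%). These intervals overlap, so 2.97 CPM is read as background and no exact knockdown fold is read. Adgrd1, an adhesion G-protein-coupled receptor, was at 23.8 against 2.75 CPM and 27.8 against 4.39 CPM. Anxa8, a calcium-dependent membrane-binding annexin, was at 53.4 against 10.8 CPM and 22.6 against 2.57 CPM. Timp3 and Anxa8 were found in a minority of members, with a UMI of Timp3 in 28.1% and 12.8% and of Anxa8 in 36.7% and 14.8%. Serpinb9b, a serine protease inhibitor with close relatives in the genome, was at 23.1 against 3.13 CPM and 22.2 against 4.12 CPM. Nppb, the precursor of the peptide BNP, was at 36.8 against 12.8 CPM and 41.2 against 9.62 CPM, and 1 knockdown cell held 25.9% of its UMIs there.

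Of the other genes higher in the members, some were found in most of them and some in fewer. Jund, an AP-1 subunit, was at 773 against 346 CPM and 915 against 393 CPM. Ly6c1, a surface protein with a close relative in Ly6c2, was at 633 against 247 CPM and 680 against 285 CPM. Pla1a, a phospholipase, was at 111 against 45.4 CPM and 112 against 50.1 CPM. Tnnt2, the cardiac troponin T gene, was at 123 against 49.9 CPM and 74.8 against 23.7 CPM. Cdc42ep2, an effector of the GTPase Cdc42, was at 51.2 against 17.3 CPM and 45.6 against 15.3 CPM, with a UMI in 50.2% and 38.0% of members. Of the 15 highest genes by the rule, Sema3c, Tmem151a, Dusp8 and Tns1 had log2 ratios between 1.17 (Tns1, control) and 1.56 (Dusp8, control).

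Uap1, which makes UDP-N-acetylglucosamine at the last step of the hexosamine pathway, was the 1 gene of 11 in that list to be called. Of all genes 1.25% were higher. It was at 237 CPM (interval 226 to 249) and 278 CPM (266 to 291) in members, against 86.0 and 104 CPM. The log2 ratios were 1.46 (1.35 to 1.57) and 1.42 (1.31 to 1.52), with overlapping ranges. Gfpt1, the paralog of the targeted gene, was at 24.7 against 32.3 CPM and 31.0 against 31.8 CPM. The median of the list was -0.09 and 0.12. The enzymes just before Uap1 in the pathway were Gnpnat1, at log2 ratios of -0.05 and 0.27, and Pgm3, at -0.06 and 0.18.

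The lowest ratio by the rule was that of Gas1, found in 14.4% and 13.3% of members and in 45.4% and 46.3% of the other gated cells. Gas1, a membrane protein of growth arrest and hedgehog signalling, was at 14.0 against 78.4 CPM and 14.5 against 80.4 CPM. Osr2, a zinc finger transcription factor of mesenchyme, was at 14.6 against 61.3 CPM and 19.1 against 69.5 CPM. Pdgfra, a growth factor receptor of mesenchymal cells, was at 15.8 against 47.7 CPM and 20.9 against 57.8 CPM. A Gas1 UMI was found in 10.6% and 15.6% of the Lyz2 and Ptprc cells. With each cell thinned to 5000 UMIs, Gas1 was found in 6.42% and 5.93% of members, against 5.33% and 8.18% of the Lyz2 and Ptprc cells and 25.6% and 27.3% of the other gated cells. The thinned Osr2 shares were 5.81% and 9.14% in members, 4.22% and 7.54% in the Lyz2 and Ptprc cells and 20.1% and 23.4% in the other gated cells. The intervals of members and Lyz2 and Ptprc cells overlap for both genes in both libraries, so the levels of Gas1 and Osr2 in members are read as background, and no exact fold is read from them. Fabp4, a fatty acid carrier, was at 10.7 against 36.9 CPM and 26.7 against 104 CPM, and 1 cell held 23.6% and 21.9% of its member UMIs. Shisal2b was at 38.7 against 109 CPM and 38.4 against 124 CPM. The other genes of the 10 lowest were Enpp2, Csmd3, Rbfox1, Cilp and Emilin1, each under 12 CPM in members. Hmga2, a gate gene, was at 151 against 228 CPM and 155 against 225 CPM.

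Calls in the other lists stand beside 1.25% higher and 2.58% lower of all genes tested. Among secreted factors and proteases Pgf and Igfbp4 were higher and Spp1, F3, Plat and Mmp9 were lower, 6 of 15 genes above the level filter. Pgf, a relative of Vegfa, was at 14.4 against 7.32 CPM and 18.0 against 9.31 CPM. Mmp9, a gelatinase, was at 29.8 against 59.5 CPM and 30.7 against 60.5 CPM. Of immediate early genes Klf4 was higher, at 367 against 179 CPM and 371 against 210 CPM, and Fosb, Egr1 and Btg2 were lower, 4 of 16 genes above the level filter. Of the integrated stress response genes Nupr1 was higher, at 2515 against 1126 CPM and 1980 against 1114 CPM, and Slc7a11, the cystine transporter, was lower, with log2 ratios of -0.95 and -0.88. Timp3 was higher and Thbs2 lower among 18 collagen and matrix genes, Cxcl10 was lower among 22 interferon response genes, and Mt1 was higher among 6 metallothionein and iron genes. The retinoid handling list around Crabp2 gave no call among 6 genes, with medians of 0.15 and 0.01. No gene was called in either direction in the unfolded protein response (18 genes), heat shock protein (12), mesenchymal (14), class I antigen presentation (11), NRF2 (13) and lipid synthesis (23) lists.

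Markers of other cell types ranged from 0 to levels like those of the other gated cells, and some lists summed higher in the members. Mesothelial cells express Msln and Lrrn4, the gene that the score gene Lrrn4cl is named after. Msln was at 15.3 and 5.99 CPM in members, against 2.20 and 0.901 CPM, while Upk1b, Lrrn4, Wt1, Muc16, Gpm6a, Krt19 and Bnc1 were at 0 in the members of both libraries. The fibroblast list summed to 2960 and 3536 CPM in members, against 3430 and 3879 CPM in the other gated cells. Cd34 and Mfap5 of that list were higher and Pdgfra was lower. Macrophage and monocyte markers summed to 106 and 154 CPM, against 134 and 161 CPM, and their part in the results was not tested. Endothelial markers were at 3.42 and 4.67 CPM, lymphocyte markers at 4.76 and 5.70 CPM, neutrophil markers at 1.19 and 0.730 CPM and Schwann cell markers at 10.4 and 9.20 CPM in members. Pericyte and smooth muscle markers summed to 74.4 and 62.2 CPM, against 47.2 and 48.4 CPM, with Myh11, Notch3, Kcnj8 and Abcc9 at 0. The 5 genes of that list with a ratio had medians of 0.77 and 0.24. Of them 4 and 3 were above 0, and in each library 2 had a range wholly above 0. Skeletal muscle markers were at 35.0 and 36.2 CPM. Red cell markers summed to 1.49 and 196 CPM, against 3.09 and 9.56 CPM, with most of the knockdown UMIs in 1 cell. The lung epithelial markers summed to 54.6 and 75.2 CPM, against 42.1 and 66.1 CPM, most of it Hopx at 52.8 and 74.3 CPM, with Sftpb, Sftpa1 and Epcam at 0. Xist, the transcript of the silenced X chromosome in female cells, was at 1.79 and 2.78 CPM.

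Members led by different score genes differed in what else they carried. Each member was placed by the score gene with the most UMIs, which is a description within cells that the same genes chose. Lrrn4cl led in 143 control and 103 knockdown members, Cryab in 111 and 190, Crabp2 in 45 and 52 and Krt14 in 17 and 44. Ties left 11 and 16 members out. Cryab led in 33.9% of control and 46.9% of knockdown members.

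The hypoxia list was above the other gated cells in all 4 groups, with medians of 0.63 (Cryab), 0.39 (Krt14), 0.69 (Crabp2) and 0.61 (Lrrn4cl) for control and 0.34, 0.50, 0.67 and 0.52 for knockdown cells. Ero1a was highest in the Cryab-led cells of the control library, at 932 CPM (interval 894 to 970), against 457 to 618 CPM in the other groups. In the knockdown library the 4 groups lay between 402 and 512 CPM. Uap1 was lowest in the Cryab-led cells of the knockdown library, at 127 CPM, and highest in the Lrrn4cl-led cells there, at 529 CPM. Anxa8 was highest in the Krt14-led cells of both libraries, at 131 CPM (96.4 to 173) and 82.6 CPM (63.3 to 106).

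Dnajb1 and Hsph1 were highest in the Cryab-led cells, a split by a gene that the rule used, given as a description. Dnajb1, the HSP40 co-chaperone that works with HSP70, was at 181 CPM (165 to 199) in the Cryab-led control cells and at 65.3 to 83.9 CPM in the other 3 groups. In the knockdown library it was at 434 CPM (413 to 457) in the Cryab-led cells and at 109 to 133 CPM in the others. Hsph1, an HSP110 chaperone, was at 84.1 CPM against 40.8 to 52.2 CPM in control cells and at 204 CPM against 59.2 to 71.5 CPM in knockdown cells. The heat shock list had a median log2 ratio over the other gated cells of 0.23 and 0.81 in the Cryab-led cells, with 12 of 15 and 14 of 16 genes above 0, and of -0.30 to -0.02 in the other groups. The intervals of the Cryab-led cells do not overlap those of the other groups for Dnajb1 in both libraries.

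**Figure D4:**
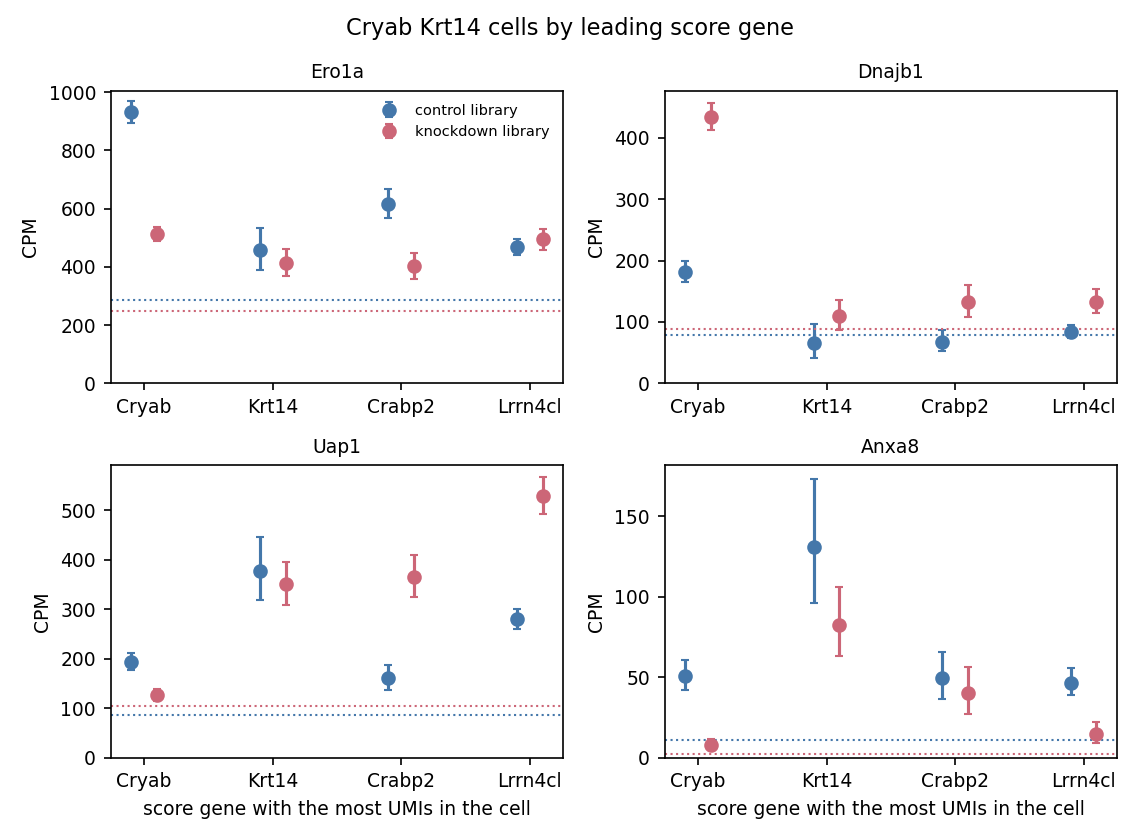
CPM with 95% Poisson intervals (y axis) of Ero1a, Dnajb1, Uap1 and Anxa8 in the Cryab Krt14 cells grouped by the score gene with the most UMIs in the cell (x axis), with dotted lines at the level of the other gated cells of each library. Dnajb1 stands high in the Cryab-led cells at 181 and 434 CPM, and Anxa8 in the Krt14-led cells at 131 and 82.6 CPM.

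Between the libraries, the members of the knockdown tumour had more RNA of 4 of 12 heat shock genes and of 5 of 18 collagen and matrix genes, and less of 3 other matrix genes. Among 7781 genes with a mean of at least 10 CPM, 134 (1.72%) were at least 1.5-fold higher in knockdown than in control members and 40 (0.514%) were lower. With TMM scaling the split was 96 higher and 61 lower. List counts between the libraries stand beside these shares of 1.72% and 0.514%. The median log2 ratio of all genes was 0.04. These values compare 2 libraries, and the hairpin, the tumour, the preparation and the sequencing cannot be told apart.

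Dnajb1 was at 117 and 285 CPM in members, a log2 ratio of 1.28 (1.12 to 1.45), and at 78.6 and 88.6 CPM in the other gated cells. Hsph1 was at 62.7 and 137 CPM, a log2 ratio of 1.13 (0.90 to 1.36), and at 71.1 and 74.1 CPM in the other gated cells. Dnaja1, another HSP40, was at 428 and 752 CPM, and Hspa1b, an inducible HSP70 with the near-identical copy Hspa1a, at 51.5 and 85.2 CPM. These 4 were the genes called of 12 in the heat shock list, whose median log2 ratio was 0.36 in members and 0.07 in the other gated cells. The constitutive HSP70 gene Hspa8 was at 1482 and 1472 CPM. Part of this moved with the score: with Cryab left out of it, the log2 ratio was 0.82 for Dnajb1, 0.66 for Hsph1 and 0.15 for the list.

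Genes of the unfolded protein response had a median log2 ratio of 0.31, against 0.21 in the other gated cells. Of 18 genes 2 were higher, against 1.72% of all genes. Sdf2l1, which assists the chaperone BiP, was at 50.8 and 112 CPM in members. Manf, a secreted stress factor, was at 373 and 565 CPM. Clu, the extracellular chaperone clusterin, was at 13.7 and 43.5 CPM, a log2 ratio of 1.67 (1.21 to 2.14), and at 9.58 and 15.3 CPM in the other gated cells. The other genes named as higher were Sema3c, a secreted guidance factor, at 46.7 and 119 CPM, Grm3, a glutamate receptor, at 17.6 and 50.5 CPM, and Csta2, a cysteine protease inhibitor of a gene family, at 13.1 and 36.7 CPM. In the other gated cells Sema3c was at 18.4 and 41.8 CPM, Grm3 at 31.1 and 67.7 CPM and Csta2 at 23.6 and 36.9 CPM, each past 1.5-fold between the libraries there too.

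Genes that mark the cells were among those lower in the knockdown library. Timp3 was at 66.5 and 19.0 CPM, a log2 ratio of -1.81 (-2.20 to -1.42), and Anxa8 at 53.4 and 22.6 CPM, a ratio of -1.24 (-1.62 to -0.86). In the other gated cells they were at 6.35 and 2.97 CPM and at 10.8 and 2.57 CPM. Both therefore stayed above the other gated cells of their own library while differing between libraries in the same direction in both cell sets. Tnnt2 fell from 123 to 74.8 CPM and Igfbp4, which binds insulin-like growth factors, from 145 to 88.5 CPM. Their log2 ratios between the libraries were -0.72 and -0.71 in members and -1.08 and -1.17 in the other gated cells. Wnt7b, a Wnt ligand, fell from 59.4 to 32.7 CPM, with a log2 ratio of -0.86 in members and -0.39 in the other gated cells. Rpl22l1, a ribosomal protein paralog, was at 1252 and 836 CPM, just short of 1.5-fold.

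Of 18 collagen and matrix genes above the level filter, 5 were higher and 3 lower in the knockdown members. The median log2 ratio of the list was 0.24, against 0.17 in the other gated cells. Col3a1, a fibrillar collagen, was at 857 and 1369 CPM in members, a log2 ratio of 0.68 (0.61 to 0.74), and at 1577 and 1808 CPM in the other gated cells, a log2 ratio of 0.20. Postn, the matrix protein periostin, had log2 ratios of 0.62 in members and 0.29 in the others. Col5a2, Bgn and Thbs2 were the other higher genes, at 0.59, 0.78 and 0.60 in members and 0.41, 0.98 and 0.30 in the others. Col1a1, the main fibrillar collagen chain, was lower in members, with a log2 ratio of -0.90 (-1.37 to -0.44), and at 0.55 in the others. Mmp2, a gelatinase, was at -0.68 and -0.87. Timp3, a metalloproteinase inhibitor, was at -1.81 in members, with no exact fold read in the others, where its knockdown level was near background. Of the mesenchymal list, Fn1, the matrix protein fibronectin, was the 1 gene of 14 called, at 770.2 and 1333 CPM in members, a log2 ratio of 0.79, against 0.47 in the others. The difference between members and other gated cells in these ratios was not tested.

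Some large ratios came with many of the UMIs in 1 cell or moved with the choice of members. Krt16 was at 68.9 and 16.7 CPM, a log2 ratio of -2.05, and it was -0.31 with Cryab left out of the score, which is no call, and -2.71 with Krt14 left out. In the other gated cells the Krt16 ratio between the libraries was -2.76 (-2.99 to -2.54). Ccl5, a chemokine of leukocytes, was at 126 and 32.3 CPM, with 1 control cell holding 43.6% of the control UMIs. Its log2 ratio was -1.96, and -0.92 among the top 20% of cells by score, against -0.42 in the other gated cells. Hbb-bs, a haemoglobin gene with close copies, gave the largest ratio, and 1 knockdown cell held 96.4% of its knockdown UMIs.

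**Figure D5:**
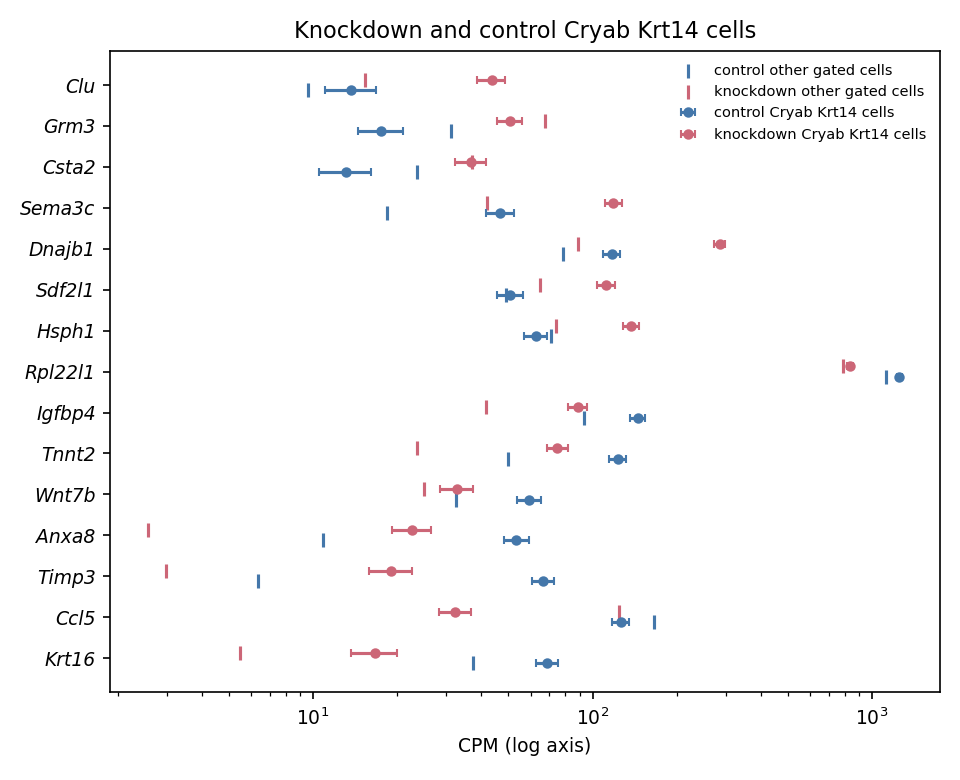
CPM on a log axis (x axis) of the genes named for this comparison, Hbb-bs left out (y axis), with points and 95% Poisson intervals for Cryab Krt14 cells and ticks for the other gated cells, blue for control and red for knockdown. Dnajb1 and Hsph1 differ between libraries in the members, at 117 and 285 and at 62.7 and 137 CPM, while their ticks lie close together.

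The hypoxia genes were not called between the libraries. None of 26 genes was 1.5-fold apart, and the median log2 ratio was -0.20 in members and -0.01 in the other gated cells. Ero1a was at -0.48 (-0.57 to -0.38), and Bnip3 and Ndrg1 were both at -0.32. P4ha1, which like P4ha2 encodes an alpha subunit of collagen prolyl hydroxylase, was at 0.30 (0.18 to 0.43).

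Other groups cut from the same gate had list medians for hypoxia nearer to those of their own rest, a difference with no test here. A group cut by Csmd3 and Robo2 had hypoxia medians of -0.17 and -0.05, and 1 cut by Tnnt2 and Tafa5 had -0.04 and 0.03. Cells with any Krt16, Klk8 or Gfpt2 UMI had -0.06 and 0.13, with 13 of 32 and 24 of 32 genes above 0. Over their own rest, log2 ratios in these cells were -0.14 and 0.47 for Ndrg1 and -0.32 and 0.48 for Ero1a. Uap1 was at 0.27 and 0.54 in them, at 0.58 and 0.078 in the Csmd3 Robo2 cells and at 0.20 and -0.29 in the Tnnt2 Tafa5 cells. Of the control Cryab Krt14 cells 89 (27.2%) were also Tnnt2 Tafa5 cells, which is 17.9% of that group, and of the knockdown ones 68 (16.8%), which is 28.8%. With Krt16, Klk8 or Gfpt2 cells they shared 36 and 38 cells, which are 11.0% and 9.38% of the Cryab Krt14 cells and 7.71% and 19.2% of that group. With Csmd3 Robo2 cells they shared 10 and 19, which are 3.06% and 4.69% of the Cryab Krt14 cells and 3.27% and 4.46% of that group. The G2 and M phase medians were -0.64 and -0.63 in the Csmd3 Robo2 cells, 0.12 and 0.11 in the Krt16, Klk8 or Gfpt2 cells, 0.42 and 0.23 in the Tnnt2 Tafa5 cells and -0.66 and -0.93 in the Cryab Krt14 cells, so low levels of these genes were found in the Csmd3 Robo2 cells too.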

How the data were processed

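Single-cell RNA was measured in 1 control and 1 knockdown library. The deposited matrices hold unnormalised UMI counts (whole numbers), which per the file headers came from Cell Ranger 6.1.0, while the submitters' processing notes list 3.1.0. The genome build and annotation of the counts are not given in the sources used here. The libraries hold 165824226 and 138402860 UMIs in 11977 and 12853 cells. From the deposited counts, CPM were computed over summed UMIs, with Python 3.11.15, numpy 2.4.6, scipy 1.17.1 and, for Scrublet, scanpy 1.11.5. TMM factors came from edgeR 4.0.16, in which no test was run. Doublets were not removed, and leaving out those Scrublet marked was an alternative. The ratio script was tested on simulated data.

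The members and the 22 gene lists and 12 marker lists were chosen with earlier results of these data known. Named genes were the score genes and 5 markers, the 15 highest and 10 lowest of members over other gated cells by the ratio nearest 0 of the 2 libraries, and the 8 highest and 8 lowest of knockdown over control members by the bound nearest 0, at 20 CPM or more. Also named were Gfpt2, Gfpt1, Xist and examples of each list. Other list genes that passed 1.5-fold, Car9, Vegfa, Egln1, Hmga2 and the enzymes beside Uap1 were chosen after their values were seen. Symbols with no identifier or with more than 1 (Mir210hg, Aldoa, Ddit3, Ddx58, Atp5o, Fam19a5) were left out. The list of genes that mark other groups of the gate gave Tnnt2 and Krt16 higher and Csmd3 lower among 5 genes. Red cell markers summed to 1.49 and 196 CPM in members, and 1296 of 1344 globin UMIs of the knockdown members were in 1 cell.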

Additional observations from a re-analysis of the deposited data

Results flagged for a closer look

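Among the genes named in the report and above the level filter, 5 moved in opposite directions in the 2 libraries when Cryab Krt14 cells were set against the other gated cells, with counting ranges on opposite sides of 0, and with 1 library per group this difference was not tested. The log2 ratio of Hsph1, an HSP110 chaperone, was -0.18 (control) and 0.89 (knockdown). Dnaja1, an HSP40, was at -0.12 and 0.62. Ifit3, an interferon-induced gene, was at 0.16 and -0.47. Fth1, the ferritin heavy chain, was at -0.17 and 0.081. Prdx1, a peroxiredoxin, was at -0.12 and 0.11. Of these values, those of Hsph1 and Dnaja1 in the knockdown library were past 1.5-fold. Below the level filter, Hbb-bs was at -1.79 (-3.90 to -0.18) and 4.46 (4.21 to 4.72), and Klk8, a kallikrein protease, at -0.66 (-0.99 to -0.34) and 1.00 (0.33 to 1.65). In the control members 1 cell held 41.9% of the Klk8 UMIs, and in the knockdown members 1 cell held 96.4% of the Hbb-bs UMIs.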

How the results depend on the processing

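No paired analysis was possible because each group was 1 library. Of 92 values of the main results under the alternatives, 78 stayed within 1.5 times the main count or within the main value's range. Of 1272 for single genes and lists 1188 did. For a list median that range ran from the median low bound to the median high bound of its genes, 0.38 to 0.78 for hypoxia in control cells. It is not a counting range of the median, so staying within it is a loose limit. The share ratio of 1.29 was 1.04 with Cryab left out of the score and 1.00 when the top 10% was taken within each library, where the rule fixes it. Without the level filter 579 genes were higher and 990 lower in members, and 1882 and 1282 were higher and lower in knockdown members. With the top 20% of cells 79 genes were lower in members and 20 in knockdown members. With the top 5%, 245 genes were higher and 160 lower in knockdown members, with cells thinned to 5000 UMIs 439 and 250, with Cryab left out 62 were lower, and with TMM scaling 61. The cause was not tested, except that thinning leaves fewer UMIs. The hypoxia medians lay between 0.46 and 0.68 (control), 0.39 and 0.55 (knockdown) and -0.25 and -0.08 (between libraries) under all 12 alternatives. The ratios of Gas1 and Osr2 moved among the top 20%, and no fold is read from them because their member levels are read as background. Cilp, Csmd3 and Shisal2b were at -2.52, -2.13 and -2.25 among the top 5%.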
